A study of Mus musculus with 6 samples.

Results

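The bone matrix and mineralization genes of the osteoblast lineage were followed in mouse cranial bone marrow by single-cell RNA sequencing. The 10 genes were chosen by symbol and were all present among the 55450 genes of the count tables, each with at least 1 unique molecular identifier (UMI, a tag that counts 1 captured RNA molecule) in the cells kept. Runx2 and Sp7 encode the transcription factors that commit cells to the osteoblast lineage. Bglap and Bglap2 (osteocalcin), Ibsp (bone sialoprotein), Spp1 (osteopontin) and Dmp1 (dentin matrix protein) encode proteins of the mineralized matrix. Alpl (the tissue-nonspecific alkaline phosphatase), Phex (a membrane endopeptidase that regulates phosphate) and Ifitm5 (a membrane protein of bone-forming cells) act in mineralization.

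Bone is made when osteoblasts lay down a collagen-rich matrix, load it with acidic, mineral-binding proteins and release phosphate so that mineral can form, and some of them become embedded as osteocytes. In the marrow, Cxcl12-abundant reticular cells surround the vessels, carry the leptin receptor Lepr and support blood formation, and cells of this kind can turn to bone or fat. In the skull, the mesenchyme of the sutures is another source of bone-forming cells.

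There were 6 libraries, 1 for each of 2 sites at 3 ages, from wild-type C57BL/6 mice that the study describes as male. CBMA is the marrow with the suture beside it, taken from the sagittal suture and the parietal bone next to it, and CBMD is the marrow of parietal bone far from the sutures. The ages were 2, 12 and 18 months, written 02m, 12m and 18m, and each library pooled cells of 6 to 8 mice. The dura mater and periosteum had been removed and the bone had been cut and digested with collagenase. With 1 library per age and site there was no replicate, no test was run, and intervals are exact 95% Poisson intervals of a summed count or a ratio, or exact binomial intervals of a share of cells, and cover counting error only. CBMA and CBMD may come from the same mice.

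The tables held 43420 barcodes, of which 37576 passed the stated filters. The libraries kept between 2718 and 8580 cells, and their totals ran from 12642642 up to 50754324 UMIs. Between 6 and 21 barcodes were shared by any pair of libraries. The 2 libraries of 12m stood apart: Xist, the RNA of the inactive X chromosome of female cells, had 579.8 and 691.5 UMIs per 1000000 UMIs (CPM) in them and 0.2075 to 0.432 in the other 4, although the mice are described as male. Y-linked genes were at 83.5 and 84.0 CPM in them and at 118.6 to 202.5 in the others, and these libraries were also the smallest. Shares of carriers and of UMIs that pool 12m with 18m are therefore also given for 18m alone.

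Levels are given in CPM, the UMIs of a gene per 1000000 UMIs of the same cells. Of the kept cells 620 were mesenchymal. At 02m, 12m and 18m CBMA gave 63, 50 and 336 of them, whereas CBMD gave 59, 51 and 61. They were sorted into classes by clustering in which the 10 genes took no part. Cxcl12-high Lepr-positive cells were 166 cells. CBMA had 3, 4 and 98 of them at the 3 ages, while CBMD had 0, 21 and 40. In them Cxcl12 had 28300 CPM, Lepr was detected in 94.0% of cells and Adipoq in 81.3%. Suture stroma was 121 cells (CBMA 36, 1 and 60, CBMD 21, 3 and 0) and was made of a cluster led by Postn and Tnn and another led by Sfrp2 and Tnmd.

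The cells nearest to osteoblasts were 52 cells led by Bglap, Mmp13, Bglap2, Spp1 and Vdr. CBMA had 0, 11 and 7 of them at the 3 ages, while CBMD had 1, 19 and 14. They detected 8 of the 11 osteoblast markers that could be scored, among them the parathyroid hormone receptor Pth1r in 88.5% of cells, while the osteocyte gene Mepe had 0 UMIs. The cartilage collagen gene Col2a1 was among their 10 leading genes and, beside the 10 genes themselves, none of the osteoblast markers was, so they are called Mmp13- and Vdr-led cells. Cxcl12 was at 9943 CPM in these cells, against 105 CPM in suture stroma, so the border with Cxcl12-high cells is not sharp. The name osteoblast was reached with the 10 genes allowed into the clustering (58 cells), with 30 components (54 cells) and under a stricter mitochondrial limit (46 cells).

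On the genome (build GRCm38) several of the genes are neighbours. Dmp1, Ibsp and Spp1 follow each other on the plus strand of chromosome 5 within 238.4 kb, at chr5:104202613-104214102, chr5:104299171-104311469 and chr5:104435118-104441050. Bglap and Bglap2 lie side by side on the minus strand of chromosome 3, at chr3:88383501-88384464 and chr3:88377736-88378699. Sp7 is on chromosome 15, Runx2 on 17, Alpl on 4, Ifitm5 on 7 and Phex on X.

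The coding sequences of Bglap and Bglap2 are shown because reads that match both genes alike are dropped by the counting, which lowers the level of each. Both are 288 bases long, with capitals at the 4 positions where they differ (98.6% identity), and their longest shared run is 241 bases. Sequences are from the reference transcripts of build GRCm38, 5′ to 3′.
Bglap coding sequence: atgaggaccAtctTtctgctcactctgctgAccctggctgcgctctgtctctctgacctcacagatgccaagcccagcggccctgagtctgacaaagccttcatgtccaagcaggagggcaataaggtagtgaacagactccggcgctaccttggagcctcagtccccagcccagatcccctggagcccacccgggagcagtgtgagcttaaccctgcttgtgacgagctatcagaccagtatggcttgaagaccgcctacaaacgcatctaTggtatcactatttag
Bglap2 coding sequence: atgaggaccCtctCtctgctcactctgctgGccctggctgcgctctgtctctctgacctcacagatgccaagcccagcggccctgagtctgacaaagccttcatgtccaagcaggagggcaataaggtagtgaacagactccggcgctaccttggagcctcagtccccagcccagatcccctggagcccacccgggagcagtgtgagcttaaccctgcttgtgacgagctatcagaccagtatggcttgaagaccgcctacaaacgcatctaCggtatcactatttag
Over the last 300 bases of the transcripts, which a 3′ method reads most, they differ at 1 position. Another copy, Bglap3, had 48 UMIs in all.

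The sequences just upstream of Bglap, Spp1 and Ibsp are shown because the first 2 hold the core letters bound by RUNX factors and Ibsp is, with Spp1, a gene that most cells of the Cxcl12-high class carried at 18m. They come from RefSeq tables of build GRCm38.p6, cut before the transcription start, 5′ to 3′ on the strand of the gene, with the letters ACCACA in capitals. The search covered both strands, where the same site reads TGTGGT.
Bglap upstream, chr3:88384467-88384716, minus strand: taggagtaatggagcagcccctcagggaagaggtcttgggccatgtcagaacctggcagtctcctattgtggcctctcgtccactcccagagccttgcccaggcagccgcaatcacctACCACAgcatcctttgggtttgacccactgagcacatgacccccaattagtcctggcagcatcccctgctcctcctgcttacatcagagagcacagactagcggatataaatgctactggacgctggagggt
Spp1 upstream, chr5:104434861-104435110, plus strand: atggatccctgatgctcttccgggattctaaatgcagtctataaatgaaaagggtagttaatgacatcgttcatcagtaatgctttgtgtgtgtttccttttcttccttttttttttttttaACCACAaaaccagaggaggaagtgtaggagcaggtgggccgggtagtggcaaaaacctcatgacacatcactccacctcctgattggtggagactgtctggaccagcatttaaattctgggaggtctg
Ibsp upstream, chr5:104299037-104299170, plus strand: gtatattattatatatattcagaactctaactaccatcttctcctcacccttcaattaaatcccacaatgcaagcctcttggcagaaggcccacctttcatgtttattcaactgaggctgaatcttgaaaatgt
The letters begin 132 bases before the start site in Bglap and 128 in Spp1. Of the 8 members found in the promoter table, 4 held them within 300 bases (Bglap, Spp1, Dmp1 and Runx2). Counted by promoter, 4 of the 11 promoters of these members held them, and 16.8% of all 32851 promoters did. Bglap2 and Sp7 had no entry. A match is a run of letters only and no binding was measured here.

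The 10 genes did not share a source. Ibsp, Bglap2, Phex, Sp7, Alpl, Spp1, Dmp1 and Bglap had 80.1% to 97.8% of their UMIs in the 620 mesenchymal cells, while Runx2 had 10.3% and Ifitm5 3.46% there. Among mesenchymal classes, Mmp13- and Vdr-led cells held most UMIs of Bglap (60.0% of all), Bglap2 (54.3%) and Dmp1 (63.4%). Cxcl12-high Lepr-positive cells held most of Ibsp (62.8%) and Phex (76.0%) and none of Bglap. Suture stroma held 31.5% of Alpl and 29.3% of Bglap2. For osteocalcin much of this came from the single Mmp13- and Vdr-led cell of CBMD_02m, which held 206 of the 322 Bglap UMIs and 154 of the 241 Bglap2 UMIs of its class. At 18m alone the Mmp13- and Vdr-led cells held 39.0% of Bglap and suture stroma 24.9%, and for Bglap2 the order was the other way, at 27.9% and 49.1%. The share of Dmp1 in Mmp13- and Vdr-led cells at 18m was 57.9%, from 19 UMIs, and the Cxcl12-high Lepr-positive cells then held 71.8% of Ibsp and 90.0% of Phex.

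**Figure D1:**
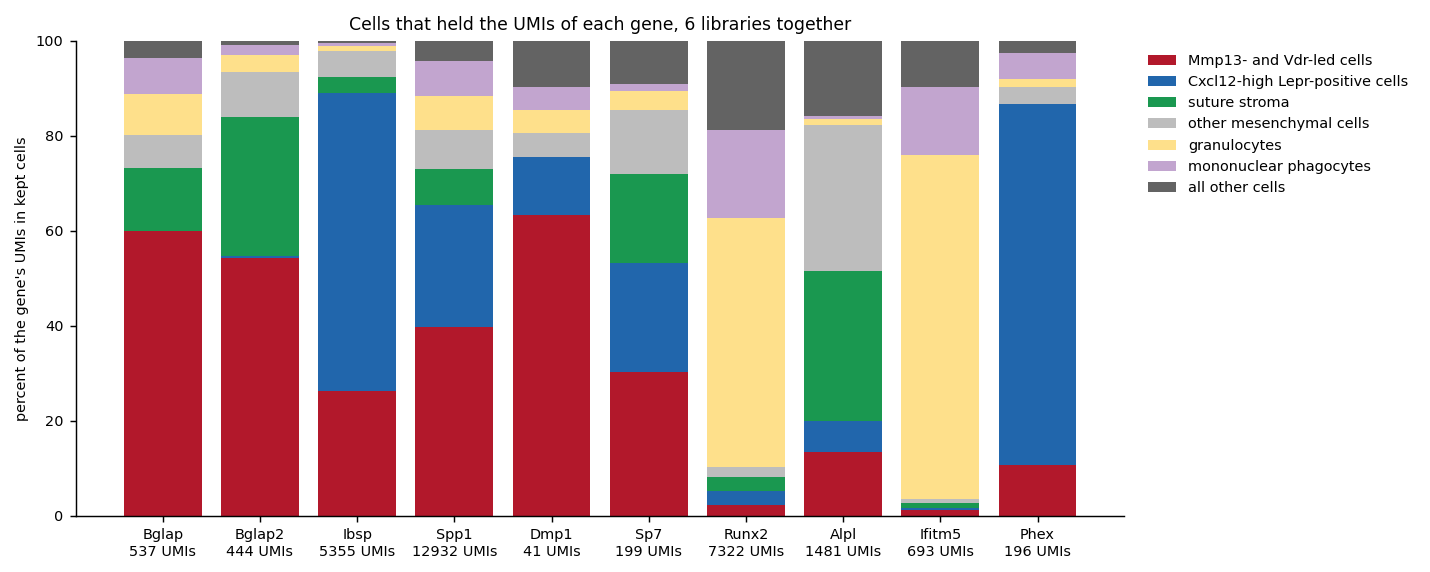
Stacked bars show, for each gene, the percent of its UMIs in all kept cells of the 6 libraries that lay in each group of cells, with the number of UMIs under the gene's name. Mesenchymal cells hold most UMIs of 8 genes, and granulocytes hold most of Runx2 and Ifitm5.

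Bone sialoprotein, the protein of Ibsp, binds mineral and collagen, and its gene was detected in both the Mmp13- and Vdr-led cells and the Cxcl12-high Lepr-positive cells. In Mmp13- and Vdr-led cells Ibsp was at 5101 CPM in CBMA_12m, 4499 in CBMA_18m, 5317 in the single cell of CBMD_02m, 5960 in CBMD_12m and 4580 in CBMD_18m. In Cxcl12-high Lepr-positive cells it was at 954 CPM in CBMA_02m (6 UMIs, all in 1 of 3 cells), 4033 in CBMA_12m (4 cells, 60 of 70 UMIs in 1), 3092 in CBMA_18m, 2930 in CBMD_12m and 1990 in CBMD_18m. The Mmp13- and Vdr-led cells were higher in each of the 4 older libraries, with intervals that overlapped in CBMA_12m. The interval at 18m was 3976 to 5071 against 2970 to 3217 in CBMA and 4146 to 5046 against 1833 to 2158 in CBMD.

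Ibsp was sparse in the other named stroma. Suture stroma had 0 UMIs in 36 cells of CBMA_02m, which allows up to 8.33% of cells with a UMI (a limit of 3 cells of the total, used for every count of 0, that bounds cells with a UMI and not cells that express the gene), and 2 UMIs in 21 cells of CBMD_02m. In CBMA_18m it had 170 UMIs in 6 of 60 cells, of which 139 were in 1 cell. The Chad-led cells (57) and the Enpp2- and Edn3-led cells (68) had 0 UMIs, which allows up to 5.26% and 4.41% of cells with a UMI. The neutrophil-led stromal cells, in which neutrophil transcripts were at 97190 CPM, held 295 Ibsp UMIs in 16 of their 56 cells of the older ages.

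Counted by cells, most of the Cxcl12-high class carried the gene at 18m. An Ibsp UMI was found in 85 of 98 Cxcl12-high Lepr-positive cells of CBMA_18m (86.7%) and 32 of 40 of CBMD_18m (80.0%). After each cell was thinned to 1000 UMIs the shares were 77.6% (68.0% to 85.4%) and 65.0% (48.3% to 79.4%). In granulocytes, which should lack the gene, the thinned share was 0.0873% over all libraries, and 0.260% before thinning, at a median of 2838 UMIs per cell against 7144. At 02m 1 mesenchymal cell of CBMA and 2 of CBMD had an Ibsp UMI.

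Osteopontin, the protein of Spp1, binds mineral and the integrins of other cells. Spp1 reached 35630 CPM in Mmp13- and Vdr-led cells of CBMA_12m, 9417 in CBMA_18m, 52120 in the single cell of CBMD_02m, 26780 in CBMD_12m and 6589 in CBMD_18m. In CBMD_12m 1310 of 2377 UMIs came from 1 cell. In Cxcl12-high Lepr-positive cells Spp1 was at 2544 CPM in CBMA_02m, 864 in CBMA_12m, 2602 in CBMA_18m, 3311 in CBMD_12m and 3237 in CBMD_18m. The first class spread widely between libraries. In the second the 3 libraries with 21 or more cells lay between 2602 and 3311 CPM, while CBMA_02m and CBMA_12m rest on 3 and 4 cells, with 16 and 15 UMIs.

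Suture stroma also carried Spp1, at 508 CPM in CBMA_02m, 1127 in CBMA_18m and 1122 in CBMD_02m, in 11 of 36, 17 of 60 and 14 of 21 cells. The share of cells with a Spp1 UMI after thinning was 79.6% in Cxcl12-high Lepr-positive cells of CBMA_18m and 90.0% in CBMD_18m, against 16.7% in suture stroma of CBMA_18m. The thinned share in all granulocytes was 1.21%.

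**Figure D2:**
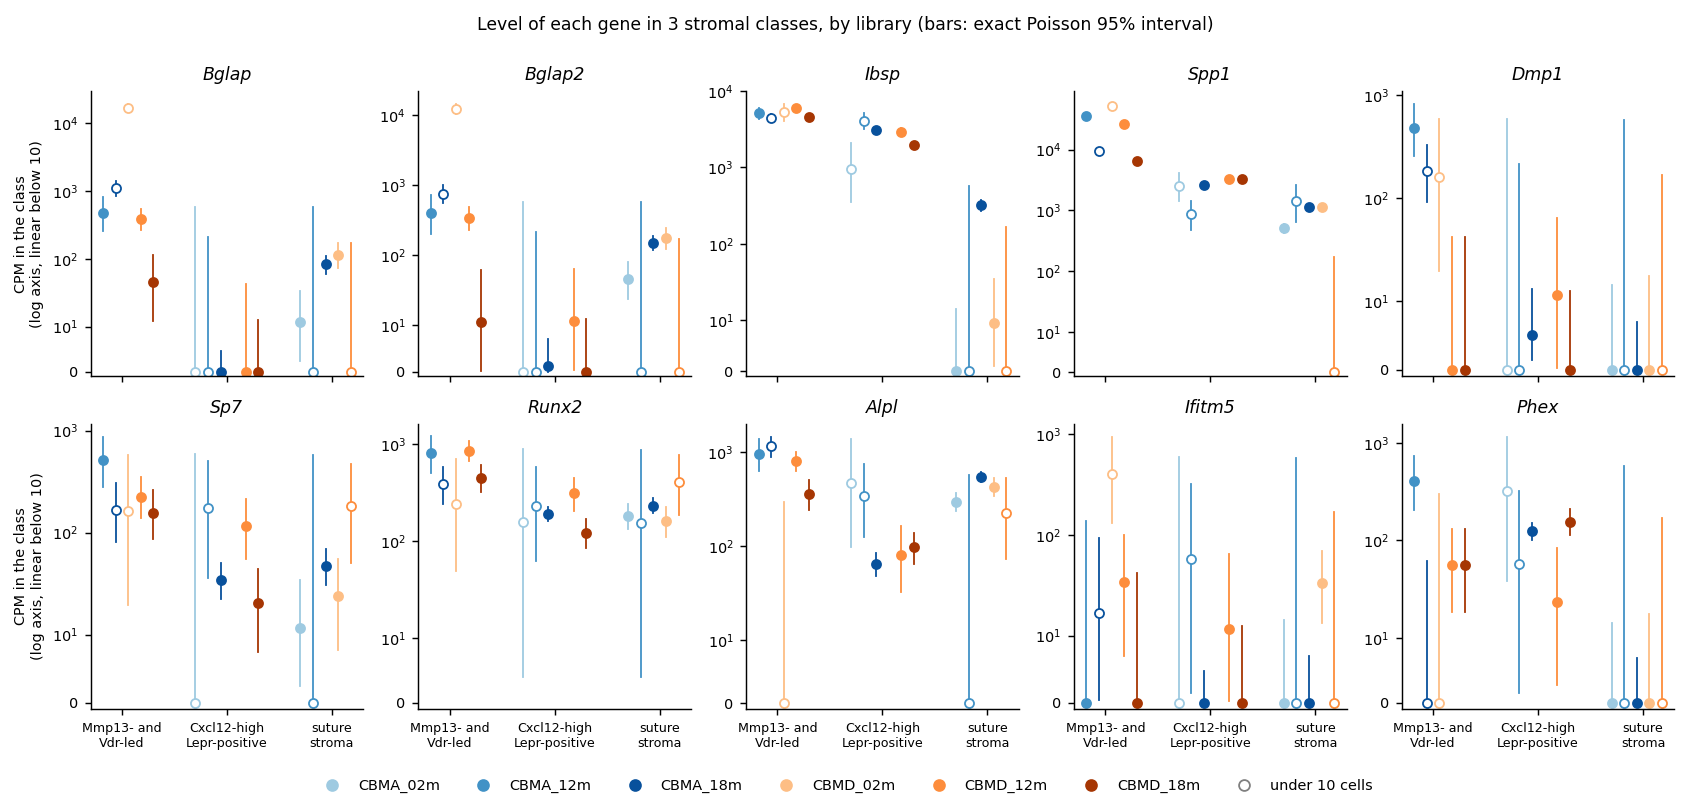
Each panel plots 1 gene in Mmp13- and Vdr-led cells, Cxcl12-high Lepr-positive cells and suture stroma, with 1 point per library, the level in CPM on a log axis that is linear below 10, and exact Poisson 95% intervals as bars. Open points are sums over fewer than 10 cells. Ibsp and Spp1 are high in the first 2 classes, Bglap and Bglap2 are at or near 0 in the second, and Phex is at 0 in suture stroma.

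Osteocalcin is a late marker of bone-forming cells, and it differed between the classes that carried Ibsp. Bglap, Bglap2 and Spp1 are among the leading genes of the Mmp13- and Vdr-led cells, so their levels there describe the cluster. Bglap had 0 UMIs in the 166 Cxcl12-high Lepr-positive cells, which allows up to 1.81% of cells with a UMI, and Bglap2 had 2 UMIs in them. In Mmp13- and Vdr-led cells Bglap had 13 UMIs (480.5 CPM) in CBMA_12m, 65 (1091 CPM) in CBMA_18m, 206 in the single cell of CBMD_02m, 34 (383 CPM) in CBMD_12m and 4 (44.9 CPM) in CBMD_18m. Bglap2 followed, with 11, 45, 154, 30 and 1 UMIs. In CBMA_18m 57 of the 65 Bglap UMIs and 33 of the 45 Bglap2 UMIs were from 1 cell, so the level there rests on it.

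Suture stroma carried osteocalcin as well. Bglap had 3 UMIs in CBMA_02m (11.6 CPM), 44 in CBMA_18m (82.7 CPM) and 24 in CBMD_02m (114 CPM), and Bglap2 had 12, 81 and 37 (46.5, 152 and 176 CPM). It lay in the Postn- and Tnn-led cells: 125 of the 130 Bglap2 UMIs of suture stroma were there, in 20 of 67 cells, and 5 in 1 of the 54 Sfrp2- and Tnmd-led cells. In the suture stroma of CBMD_02m 19 of the 24 Bglap UMIs were in 1 cell.

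Dmp1, known from osteocytes, had 41 UMIs in all libraries. Of these 26 were in Mmp13- and Vdr-led cells: 13 in 1 cell of CBMA_12m, 11 in 3 cells of CBMA_18m and 2 in the cell of CBMD_02m. Cxcl12-high Lepr-positive cells held 5 and suture stroma 0 of 121 cells, which allows up to 2.48% of cells with a UMI. In mesenchymal cells of CBMA Dmp1 was at 2.34 CPM (1 UMI) at 02m, 76.6 CPM (14 UMIs) at 12m and 5.71 CPM (15 UMIs) at 18m. The ratio of 12m to 02m was 32.8 (4.98 to 1385) and rests on the cell with 13 UMIs, and the interval of the ratio of 18m to 02m (2.44, 0.376 to 103) included 1.

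Most Phex UMIs were in Cxcl12-high Lepr-positive cells. The gene was at 124 CPM (41 of 98 cells) in CBMA_18m, 155 CPM (17 of 40 cells) in CBMD_18m and 23.1 CPM (2 of 21 cells) in CBMD_12m, and it had 2 UMIs in CBMA_02m and 1 in CBMA_12m. In Mmp13- and Vdr-led cells it was at 407 CPM in CBMA_12m (11 UMIs, all in 1 cell), 56.3 CPM in CBMD_12m and 56.1 CPM in CBMD_18m (5 UMIs each), and had 0 UMIs in CBMA_18m and CBMD_02m. Levels in these 2 classes did not keep 1 order: at 12m the Mmp13- and Vdr-led cells were the higher at both sites, with intervals that overlapped. At 18m the Cxcl12-high Lepr-positive cells were the higher at both sites. The intervals overlapped in CBMD_18m (18.2 to 131 and 114 to 207) and were apart in CBMA_18m (0 to 61.9 and 101 to 151). No UMI was found in suture stroma (0 of 121 cells) or in Chad-led cells. At 18m 92.3% of the 156 mesenchymal Phex UMIs were in Cxcl12-high Lepr-positive cells, and thinned shares were 14.3% and 10.0% in CBMA_18m and CBMD_18m against 0 of 21759 granulocytes.

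Alpl had another order. Chad-led cells, 57 cells whose leading genes include H19 and the cartilage matrix gene Chad, had 639 CPM and an Alpl UMI in 52 cells, at 645 CPM in CBMA_02m, 571 in CBMA_18m and 1101 in CBMD_02m. Mmp13- and Vdr-led cells had 961 CPM in CBMA_12m, 1158 in CBMA_18m, 0 UMIs in the cell of CBMD_02m, 811 in CBMD_12m and 359 in CBMD_18m, with 19 of 26 UMIs of CBMA_12m and 36 of 69 UMIs of CBMA_18m in 1 cell. Cxcl12-high Lepr-positive cells were low in the libraries with 21 or more of them, at 64.6, 80.8 and 98.0 CPM in CBMA_18m, CBMD_12m and CBMD_18m. In the 3 and 4 such cells of CBMA_02m and CBMA_12m the level was higher, from few UMIs.

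In suture stroma Alpl was at 298.5 CPM in CBMA_02m, 552 in CBMA_18m and 432 in CBMD_02m. Its 2 clusters differed: 422 of the 467 UMIs were in the Postn- and Tnn-led cells (791 CPM, 717 to 870) and 45 in the Sfrp2- and Tnmd-led cells (90.9 CPM, 66.3 to 122). The same Postn- and Tnn-led cells carried Bglap2. Outside the stroma Alpl was detected in endothelial cells, at 73 CPM over all libraries, and in B-lineage cells at 9.0 CPM.

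Among the transcription factors, Runx2 was broad. In Mmp13- and Vdr-led cells it was at 813, 386, 242, 856 and 449 CPM in CBMA_12m, CBMA_18m, CBMD_02m, CBMD_12m and CBMD_18m. In Cxcl12-high Lepr-positive cells it was at 192.5 CPM in CBMA_18m, 311.5 in CBMD_12m and 122 in CBMD_18m, and in suture stroma at 182 in CBMA_02m, 233 in CBMA_18m and 162 in CBMD_02m. The intervals of the last 2 classes overlapped at 18m in CBMA (163 to 226 and 194 to 278), and that of Mmp13- and Vdr-led cells (245 to 579) lay above the first and overlapped the second.

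Sp7, which acts downstream of Runx2, was sparse. It was at 517, 168, 161, 225 and 157 CPM in Mmp13- and Vdr-led cells of the same 5 libraries, from 60 UMIs in all. It was at 34.2, 115 and 20.3 CPM in Cxcl12-high Lepr-positive cells of CBMA_18m, CBMD_12m and CBMD_18m and at 11.6, 47.0 and 23.8 CPM in suture stroma of CBMA_02m, CBMA_18m and CBMD_02m. Over all libraries Cxcl12-high Lepr-positive cells had 38.5 CPM (28.2 to 51.3, 46 UMIs) and suture stroma 36.0 CPM (25.3 to 49.6, 37 UMIs), which overlap. Outside the mesenchymal cells Sp7 was at 0.106 CPM in granulocytes and at 17.5 CPM in mural cells (9.57 to 29.4, in 14 of 85 cells).

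Counted by cells over 12m and 18m together, most carriers of Ibsp and Spp1 were Cxcl12-high Lepr-positive cells. In the 12m and 18m libraries, 206 mesenchymal cells had an Ibsp UMI, and 135 of them (65.5%, 58.6% to 72.0%) were Cxcl12-high Lepr-positive cells, 49 (23.8%) were Mmp13- and Vdr-led cells, 16 were neutrophil-led stromal cells and 6 were suture stroma. Of 270 cells with a Spp1 UMI, 157 (58.1%) were Cxcl12-high Lepr-positive, 46 (17.0%) Mmp13- and Vdr-led and 18 suture stroma. By cell number, the Cxcl12-high Lepr-positive class was 32.7% of the mesenchymal cells and the Mmp13- and Vdr-led class 10.2%.

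Runx2 was spread more evenly. Its 254 carriers were 97 Cxcl12-high Lepr-positive cells (38.2%), 50 cells of suture stroma (19.7%), 38 Mmp13- and Vdr-led cells (15.0%) and 27 Chad-led cells (10.6%), while suture stroma was 12.9% of the cells. Counted in UMIs, Cxcl12-high Lepr-positive cells held 65.0% of Ibsp, 35.9% of Spp1 and 33.6% of Runx2, and the Mmp13- and Vdr-led cells 26.0%, 48.6% and 24.7%. At 18m alone the first class held 72.7%, 54.3% and 37.2% and the second 16.2%, 20.7% and 12.5%, so for Spp1 the leading class by UMIs was the other one.

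**Figure D3:**
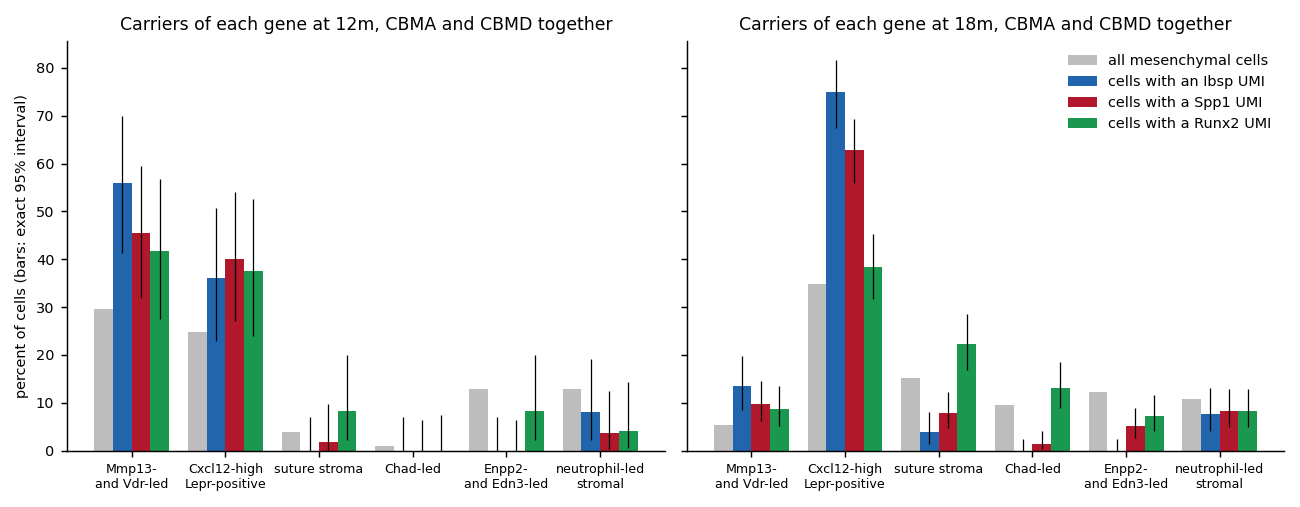
Bars give the percent of all mesenchymal cells (grey) and of cells with an Ibsp, Spp1 or Runx2 UMI that lay in each stromal class at 12m (left) and 18m (right), with exact 95% intervals. At 18m Cxcl12-high Lepr-positive cells are 34.8% of the cells and 75.0% of the Ibsp carriers, and at 12m Mmp13- and Vdr-led cells are 56.0% of the Ibsp carriers.

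The 2 ages were not alike. At 12m 28 of 50 Ibsp carriers (56.0%, 41.2% to 70.0%) were Mmp13- and Vdr-led cells and 18 (36.0%) were Cxcl12-high Lepr-positive. At 18m, without the libraries that carried Xist, 117 of 156 (75.0%, 67.5% to 81.6%) were Cxcl12-high Lepr-positive and 21 (13.5%) Mmp13- and Vdr-led. The classes themselves differed in size: Mmp13- and Vdr-led cells were 29.7% of mesenchymal cells at 12m and 5.29% at 18m. For Spp1 at 18m the shares of carriers were 62.8% and 9.77%, and for Runx2 38.3% and 8.74%, with 22.3% in suture stroma.

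Most carriers held several of the genes. Of the 135 Ibsp-positive Cxcl12-high Lepr-positive cells of 12m and 18m, 135 had a Cxcl12 UMI, 129 Lepr, 130 Spp1, 83 Runx2, 53 Phex, 36 Alpl, 31 Sp7, 2 Bglap2 and 0 Bglap. Of the 49 Ibsp-positive Mmp13- and Vdr-led cells 44 had Spp1, 19 Bglap and 16 Bglap2. Within the Cxcl12-high Lepr-positive class, the 28 cells without an Ibsp UMI had Spp1 in 27 and Runx2 in 14, at a median of 5032 UMIs per cell against 7448.

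The carriers were also counted by a gate on Cxcl12 and Lepr alone. Cells with a Lepr UMI and at least 5 Cxcl12 UMIs were 205, of which 197 were mesenchymal, 155 were among the 166 Cxcl12-high Lepr-positive cells and 14 were Mmp13- and Vdr-led cells, and 21 cells lay near the limit (3 to 7 Cxcl12 UMIs). Under this gate 72.3% of Ibsp carriers, 65.6% of Spp1 carriers and 44.9% of Runx2 carriers of the older ages were inside. At 18m alone the shares were 79.5%, 69.8% and 44.7%. Over all ages 197 of the 620 mesenchymal cells were inside. The gate counts UMIs without thinning, so deeper cells pass it more readily, and it overlaps the class, so it is not an independent count.

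**Figure D4:**
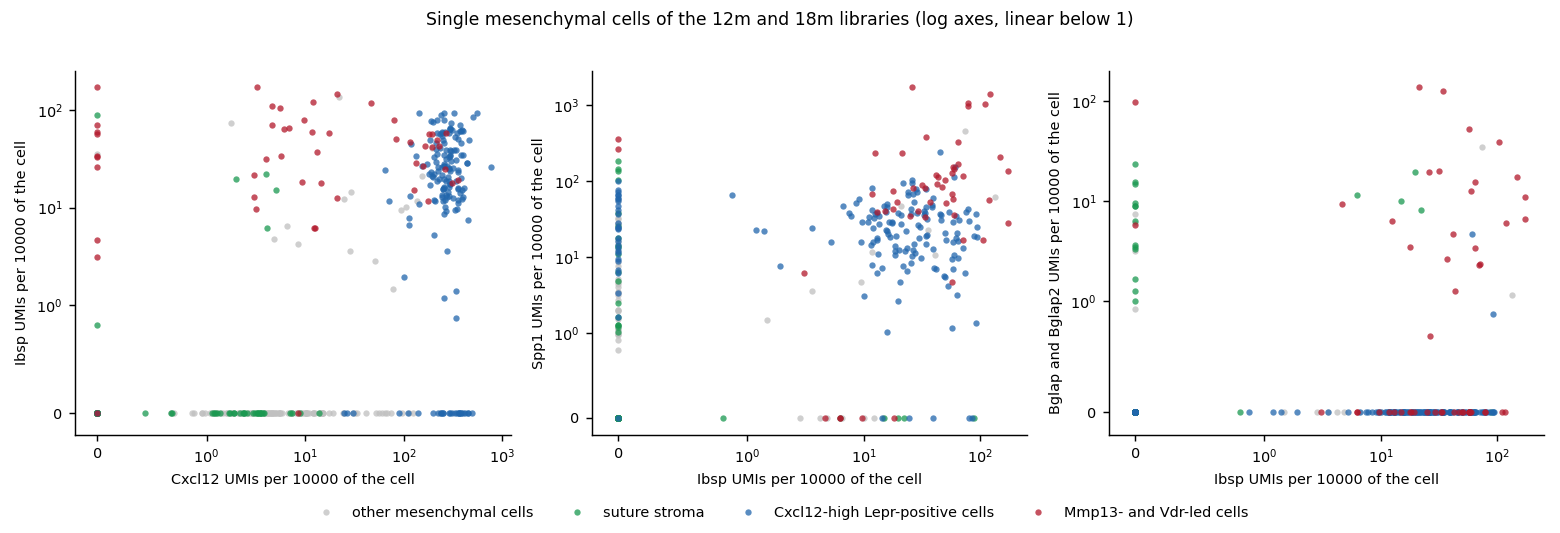
Each point is a mesenchymal cell of the 12m and 18m libraries, coloured by class, with levels in UMIs per 10000 UMIs of the cell on log axes that are linear below 1. The panels show Ibsp against Cxcl12, Spp1 against Ibsp and the sum of Bglap and Bglap2 against Ibsp. Ibsp is seen in Cxcl12-high cells and in Mmp13- and Vdr-led cells, and 22 of the 30 cells with both Ibsp and osteocalcin are Mmp13- and Vdr-led.

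The Cxcl12-high class had 2 clusters, led by Adipoq and Esm1 (79 cells) and by Cxcl10 and Cxcl13 (87 cells). Both held Ibsp, at 3117 CPM (2954 to 3286) and 2631 CPM (2517 to 2749), and Spp1, at 2835 and 2755 CPM. Cells called as doublets were 11.4% of the class, 1.92% of Mmp13- and Vdr-led cells and 5.79% of suture stroma. Transcripts of the 9 neutrophil genes had 510.2 to 6281 CPM in the class, highest in the 4 cells of CBMA_12m, 80.5 to 7133 CPM in Mmp13- and Vdr-led cells and 702.5 to 4831 CPM in suture stroma, and their part in these results was not tested.

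Between 02m and 18m, the genes of this group were set against all genes measured in mesenchymal cells, with a gene counted at 1.5-fold and at least 50 UMIs. In CBMA, 5 of the 8 members measured were higher at 18m (Bglap, Ibsp, Spp1, Sp7 and Phex) and none was lower, while 29.9% of all 7905 genes were higher and 12.1% lower, with a median log2 difference over all genes of 0.189. The intervals of Bglap (1.70-fold, 0.963 to 3.28) and Sp7 (1.88-fold, 0.874 to 4.83) included 1. In CBMD 4 of 7 were higher (Ibsp, Spp1, Runx2 and Phex) and 3 lower (Bglap, Bglap2 and Alpl), against 23.1% and 30.4% of genes, with a median of -0.101. At 2-fold, 3 members were higher in CBMA (Ibsp, Spp1 and Phex), where 15.6% of genes were, and 2 in CBMD (Ibsp and Phex), where 13.3% were. Whether the members stand apart was not tested.

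In CBMA Ibsp had the largest ratio of the members measured. It was at 14.0 CPM (6 UMIs) in mesenchymal cells of CBMA_02m and 1158 CPM in CBMA_18m, 82.5-fold higher (37.9 to 225). In CBMD it was at 151 CPM at 02m, where 66 of 68 UMIs were in 1 cell, and 2642 CPM at 18m, 17.5-fold higher (13.7 to 22.7). The 02m libraries held only 3 Cxcl12-high Lepr-positive cells and 1 Mmp13- and Vdr-led cell, so a difference in level within a class and a difference in the number of such cells cannot be told apart. Neutrophil transcripts were at 13050 and 7025 CPM in the mesenchymal cells of CBMA_02m and CBMA_18m and at 19430 and 4575 CPM in CBMD, and their part was not tested.

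Phex had 2 UMIs at 02m and 103 at 18m in CBMA (8.38-fold, 2.26 to 70.2) and 0 and 53 UMIs in CBMD. Set against a floor of 3 UMIs the level in CBMD was 18.7-fold higher, which is not a lower limit of the ratio. Spp1 was 3.81-fold higher in CBMA_18m (393 against 1495 CPM) and 1.58-fold higher in CBMD_18m (2415 against 3808 CPM). In CBMD_02m 647 of 1088 Spp1 UMIs were in 1 cell.

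Osteocalcin in CBMD was lower at 18m, by ratios larger than that of Ibsp. Bglap was at 510.5 CPM in CBMD_02m and 9.39 CPM in CBMD_18m, and Bglap2 at 424 and 4.69 CPM. But 206 of 230 Bglap UMIs and 154 of 191 Bglap2 UMIs of CBMD_02m came from 1 cell. The other 24 and 37 were in suture stroma, which had 21 cells in CBMD_02m and 0 in CBMD_18m. Without the highest cell of each library the difference between 12m and 02m had the other direction, while that between 18m and 02m kept its direction. In CBMA Bglap was at 30.4, 71.2 and 51.8 CPM and Bglap2 at 60.8, 65.7 and 58.3 CPM at the 3 ages, and the interval of the ratio of 18m to 02m included 1 for both.

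At 12m Ibsp and Spp1 were higher and Alpl lower than at 02m in CBMA, 3 of 4 members measured, where 29.4% of genes were higher and 27.5% lower. In CBMD Ibsp, Spp1 and Runx2 were higher and Bglap and Bglap2 lower, 5 of 6 measured, where 27.8% and 25.3% of genes were. Ibsp at 12m was 82.3-fold higher in CBMA (37.2 to 227) and 21.2-fold higher in CBMD (16.5 to 27.6), so its direction against 02m was the same at 12m and at 18m. Both ages were set against the same 02m library of their site, so these ratios are not independent.

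Within suture stroma, which was large enough in CBMA at 02m and 18m (36 and 60 cells), 4 of 5 members measured were higher at 18m, where 19.0% of 2203 genes were. Bglap2 was 3.27-fold (1.77 to 6.59), Spp1 2.22-fold (1.83 to 2.70) and Alpl 1.85-fold higher (1.44 to 2.41). The Bglap2 UMIs lay in 2 cells at 02m and 13 cells at 18m, a limit that the interval does not cover. Ibsp, the fourth, had 0 against 170 UMIs and rests on the cell with 139 of them. Runx2 was at 182 and 233 CPM, a ratio of 1.28 (0.907 to 1.83). The Postn- and Tnn-led cells were 25 of 36 cells at 02m and 31 of 60 at 18m.

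Within Cxcl12-high Lepr-positive cells of 18m, Ibsp was 1.55-fold (1.42 to 1.70) and Runx2 1.58-fold (1.09 to 2.34) higher in CBMA than in CBMD, and Alpl was lower at 0.659-fold (0.41 to 1.08), in 5 members measured. Of all 3536 genes 11.8% were higher and 4.67% lower. Spp1 was at 2602 and 3237 CPM and Phex at 124 and 155 CPM, which is within 1.5-fold.

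Runx2 and Ifitm5 had most of their UMIs in blood cells. Granulocytes held 3834 of the 7322 Runx2 UMIs, at 35.1, 43.5 and 63.2 CPM in CBMA at 02m, 12m and 18m, while CBMD had 46.4, 45.1 and 72.8. Mononuclear phagocytes of CBMA had 11.4, 27.5 and 17.1 CPM and those of CBMD 12.5, 37.2 and 17.7. Runx2 has roles in blood cells as well as in bone, and on the CPM scale it was lower in granulocytes than in each of the 3 stromal classes. The thinned share of granulocytes with a Runx2 UMI was 4.28% in CBMA_02m and 6.47% in CBMA_18m.

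Ifitm5 is known as a bone gene, but 503 of its 693 UMIs were in granulocytes and 24 in mesenchymal cells. In granulocytes it was at 2.42, 1.47 and 8.26 CPM in CBMA at the 3 ages, while CBMD had 4.85, 14.8 and 10.9. A cluster led by Ptgs2, Acod1, Ccrl2 and Il1b had 278 of the UMIs (16.0 CPM), and the cluster led by Fcnb and Camp had 5 (0.686 CPM). On the genome Ifitm5 (chr7:140948958-140950291, minus strand) overlaps the gene model Gm45717 (chr7:140949222-140955937), which lies on the same strand, reaches over Ifitm2 and had 0 UMIs. Ifitm2 was at 1230 CPM in granulocytes, and how far its reads are counted as Ifitm5 was not tested. In Mmp13- and Vdr-led cells Ifitm5 had 9 UMIs, 5 of them in the cell of CBMD_02m.

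**Figure D5:**
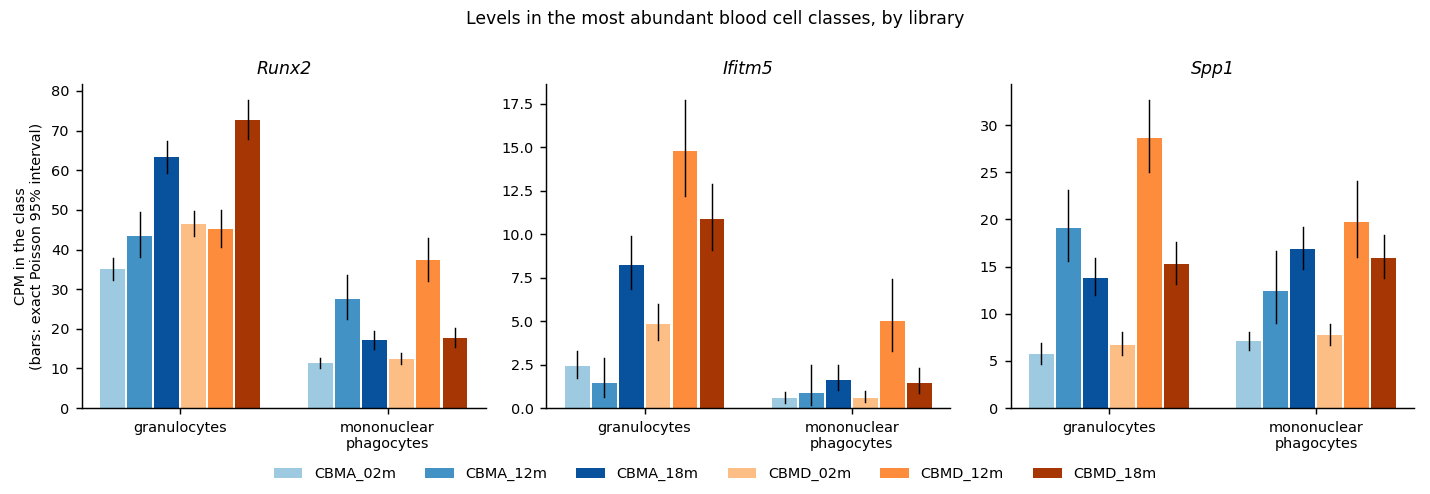
Bars give the level of Runx2, Ifitm5 and Spp1 in granulocytes and in mononuclear phagocytes of each library in CPM, with exact Poisson 95% intervals as lines. At 18m all 3 genes are higher than at 02m in granulocytes of both sites, for Runx2 at 63.2 against 35.1 in CBMA and 72.8 against 46.4 in CBMD.

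At 18m Runx2, Ifitm5 and Spp1 were all higher than at 02m in granulocytes at 1.5-fold, in CBMA and in CBMD, where 14.2% and 13.6% of all genes were. Runx2 was 1.80-fold (1.63 to 2.00) and 1.57-fold (1.42 to 1.73) higher, Ifitm5 3.41-fold (2.39 to 4.95) and 2.24-fold (1.70 to 2.97), and Spp1 2.43-fold (1.91 to 3.12) and 2.27-fold (1.79 to 2.88). Spp1 levels were 5.69, 19.1 and 13.8 CPM in granulocytes of CBMA and 6.73, 28.7 and 15.3 in CBMD. In mononuclear phagocytes they were 7.06, 12.4 and 16.9 CPM and 7.73, 19.7 and 15.9. In mesenchymal cells, as in granulocytes, Spp1 was highest at 12m, at 5594 CPM in CBMA and 10870 in CBMD, whereas phagocytes of CBMA were highest at 18m. Levels differed between granulocyte clusters: Runx2 was at 69.26 CPM in the cluster led by Ptgs2 and 13.04 CPM in that led by Fcnb. The part of the mix of clusters at each age in the granulocyte ratios was not tested, so level and cell makeup are not told apart in them. The part of free RNA in the blood cell values was not tested.

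The other genes of bone formation, taken from lists, did not all share the direction of Ibsp and Spp1. Their counts stand against the 29.9% of genes higher and 12.1% lower in CBMA, and the 23.1% higher and 30.4% lower in CBMD. The mesenchymal cells compared were of different classes at the 2 ages: CBMD had 21 cells of suture stroma at 02m and 0 at 18m, and 0 and 40 Cxcl12-high Lepr-positive cells, so level and cell makeup cannot be told apart here either. In CBMA mesenchymal cells at 18m against 02m, bone matrix and collagen genes were higher in 1 and lower in 7 of 14 measured, with a median log2 difference of -0.595 against 0.189 over all genes. Col1a1, the main collagen of bone, was at 5283 against 17120 CPM, and Sparc, which binds collagen and calcium, at 4611 against 11120 CPM. In CBMD 2 were higher and 10 lower of 15, with Col1a1 at 582 against 17560 CPM.

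Of osteocyte and endocrine genes 4 of 7 measured were higher and 1 lower in CBMA, with the vitamin D receptor Vdr at 32.0 against 4.68 CPM, and 2 of 3 were higher in CBMD, with Vdr at 141 against 13.3 CPM. Of Bmp and Wnt genes 6 of 19 were higher and 1 lower in CBMA, and 5 of 12 higher and 5 lower in CBMD. Grem1, a secreted Bmp antagonist, was at 160 against 7.02 CPM in CBMA and had 279 against 0 UMIs in CBMD. Bmp6 was at 115 against 32.7 CPM and 206.5 against 8.88 CPM.

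Transcription factors of bone formation were higher in 4 and lower in 1 of 10 in CBMA and higher in 1 and lower in 2 of 6 in CBMD, and Twist1 was lower at both sites (135 against 288 CPM and 49.3 against 242 CPM). Mineralization genes were higher in 2 and lower in 3 of 11 in CBMA and higher in 1 and lower in 4 of 5 in CBMD, with Slc36a2 higher at both sites (42.7 against 14.0 CPM and 124 against 15.5 CPM). Receptors of osteopontin were higher in 1 and lower in 1 of 7 in CBMA, and the same of 4 in CBMD. Osteoclast genes were lower in 2 of 3 and 2 of 2 in mesenchymal cells (Ctsk and Mmp9 at both sites), where Dcstamp, Calcr and Oscar had 0 UMIs. Summed over all cells these genes were not lower at 18m. There Ctsk was 2.51-fold and 2.28-fold its 02m level in CBMA and CBMD, Mmp9 1.109-fold and 1.055-fold, and Acp5 1.58-fold and 2.80-fold. Neutrophil transcripts were higher in 1 and lower in 5 of 9 in CBMA and lower in 5 of 5 in CBMD.

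The genes with the pattern most like that of a member were sought over 57 sums of a class in a library, 10 of them stromal, by Pearson's r of log2(CPM + 10). For Ibsp these were Grem1 (0.963), Ackr4 (0.955) and Ptx3 (0.939). For Spp1 they were Cxcl14, Fgf7 and Gpm6b (0.899 to 0.891), for Bglap Chad, Ccn4 and Intu (0.766 to 0.764), for Bglap2 Cilp2, Sfrp2 and Col11a1 (0.889 to 0.883), for Runx2 Tctn1, Ncam1 and Olfml3 (0.764 to 0.728) and for Alpl Fat4, Aebp1 and Efna5 (0.943 to 0.922). The sums share libraries and differ in depth, and these values are descriptions. No sum was of Mmp13- and Vdr-led cells, which had at most 19 cells in a library, under the 20 required. That class held 60.0% of Bglap, 54.3% of Bglap2, 39.7% of Spp1 and 26.3% of Ibsp UMIs, so the matches do not cover it. Dmp1, Sp7, Ifitm5 and Phex had under 200 UMIs in stroma and were not matched.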

How the data were processed

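Single-cell RNA of 6 libraries was measured with a 10x method. The authors aligned reads to GRCm38 and made UMI count matrices with Cell Ranger, per the labels and processing notes, and deposited raw counts. Cells with 500 to 5000 genes and under 25% mitochondrial UMIs were kept, which left more cells than the study kept. Counts were clustered in Python 3.11.15 with scanpy 1.11.5 (2000 variable genes without the 10 genes, 10 components, 20 neighbours, resolution 0.8), and mesenchymal cells were clustered again. Classes were named from marker lists. Doublets were scored and kept (2082 cells at 0.8% per 1000 barcodes), and an alternative left them out. UMIs were summed per class and library, shares of positive cells were taken after thinning to 1000 UMIs, and exact intervals came from scipy 1.17.1. Genes were compared at 1.5-fold with at least 50 UMIs over both libraries. No p-value was computed. Named genes were the 10 members, Bglap3, Xist, at most 3 measured genes of each list with the largest ratio in each direction, the 5 leading genes of each stromal cluster, and the 3 genes most like each member (sums of at least 20 cells, members with at least 200 UMIs). Other genes named, such as Ifitm2, were chosen after their values were seen. The members and lists were chosen with earlier results of these data known. The counting and ratio steps were tested on simulated data.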

Additional observations from a re-analysis of the deposited data

Results flagged for a closer look

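Summed over all cells, Bglap, Bglap2 and Alpl had opposite directions at the 2 sites. Bglap at 12m was 2.573 times its 02m level in CBMA and 0.4519 times in CBMD, and at 18m 5.341 and 0.07734 times. Bglap2 at 18m was 6.636 times its 02m level in CBMA and 0.02757 times in CBMD, and Alpl 6.285 and 0.6133 times. With 1 library per site and age the difference was not tested. Of the 230 mesenchymal Bglap UMIs of CBMD_02m 206 were in 1 cell, and mesenchymal cells were 63 of 8580 cells in CBMA_02m and 336 of 7232 in CBMA_18m.

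Barcodes with over 5000 genes, which the filter left out, held UMIs of 9 members: 15 of Bglap, 12 of Bglap2, 621 of Ibsp, 1117 of Spp1, 25 of Sp7, 1241 of Runx2, 141 of Alpl, 32 of Ifitm5 and 55 of Phex.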

How the results depend on the processing

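No paired analysis was possible because the groups compared, each 1 age at 1 site, share fewer than 2 replicate numbers, and a comparison of the sites over the 3 ages was not run. Of 712 values from alternative settings over 119 results, 594 stayed the same, 116 moved and 2 reversed. A value stayed the same if it lay within the counting interval of the reported value. A count of members did so if it was equal to the reported count or within 1.5-fold of it. The share of Ibsp carriers in Cxcl12-high Lepr-positive cells (65.5%) was 53.92% with 30 components, 72.33% with the gate on Lepr and Cxcl12 and 75.0% at 18m alone, and that of Spp1 carriers (58.1%) 47.01% and 65.56% under the first 2. That of Runx2 carriers was 44.88% under the gate. The shares in Mmp13- and Vdr-led cells were 16.99% for Ibsp, 11.85% for Spp1 and 9.449% for Runx2 under the gate, and 13.46%, 9.767% and 8.738% at 18m alone. Without thinning, 86.73% (CBMA_18m) and 80.0% (CBMD_18m) of Cxcl12-high Lepr-positive cells had Ibsp. At 2-fold, 3 members were higher in CBMA_18m (15.6% of all genes) and 2 in CBMD_18m (13.3%). Leaving out the cell with the most UMIs, chosen after seeing the data, gave Ibsp at 1712 CPM in Cxcl12-high Lepr-positive and 3639 CPM in Mmp13- and Vdr-led cells of CBMD_18m. It gave an Ibsp log2 ratio of 9.047 in CBMD at 18m against 02m (4.13 reported, 4.538 with 30 components) and of 0.7967 between sites in Cxcl12-high Lepr-positive cells at 18m (0.6355 reported). It reversed the sign of Bglap (0.7232, from -1.882) and Bglap2 (0.09873, from -1.747) in CBMD at 12m against 02m, where 1 cell of CBMD_02m held most UMIs. The Bglap2 value left is under 1.5-fold. At resolution 1.2 the Mmp13- and Vdr-led cells were not recovered as a named class. Small classes limit depth: 1 Mmp13- and Vdr-led and 3 Cxcl12-high Lepr-positive cells at 02m.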
